A study of Mus musculus with 18 samples.

Results

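The 9 genes described here, Bcl2, Bcl2l1, Bcl2l11, Mcl1, Bid, Bad, Bak1, Bik and Bnip3l, belong to or are related to the BCL2 family, whose proteins decide at the mitochondrial outer membrane whether a cell starts apoptosis. They were chosen by symbol, and every probe set annotated with exactly 1 symbol, that of a listed gene, was taken. A probe set is a group of short array probes against the same transcript. This gave 25 of the 22626 probe sets that are not controls, and they covered 8 of the 9 genes, out of 12393 genes with such a probe set on the array: 1 for Bcl2, 4 for Bcl2l1, 5 for Bcl2l11, 6 for Mcl1, 2 each for Bid, Bad and Bak1, and 3 for Bik. Bnip3l had 0 such probe sets, because its 3 probe sets carry a further symbol, and no value is given for it. An executioner caspase belongs to the same theme, but no caspase is among the listed genes, and Casp6 is described with the neighbouring pathways at the end.

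Gene expression had been measured on single-colour oligonucleotide arrays in 18 microdissected lung tumours from 6 mice of strain C57/B6-129SvJae, aged 10 weeks. Treated mice were given tamoxifen in 2 intraperitoneal injections and their tumours, which the labels call p53 restored, were taken on day 7 after the first one. The entries of 2 injections and day 7 are the same for all 18 tumours, and do not say what untreated mice were given. The comparison asked what p53 restoration changed in adenocarcinomas (grade 3) and in adenomas (grade 2), and what differed between the grades. The groups were 6 treated grade 3 tumours, all from the female 8688, 4 untreated grade 3 tumours from the males 8584, 8565 and 8629, 4 treated grade 2 tumours, of which 3 came from 8688 and 1 (8639T4) from the male 8639, and 4 untreated grade 2 tumours from the males 8700 and 8565. The labels used here do not give the alleles of the mice, and no group received tamoxifen without p53 restoration, so the effects of the drug and of p53 cannot be told apart. No mouse carried both treated and untreated tumours, so treatment cannot be told apart from mouse. It cannot be told apart from sex in grade 3, and in grade 2 only through 8639T4. Tumours of 1 mouse are not independent, so p-values over tumours are too small.

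In the BCL2 family, guardian proteins hold the membrane closed, and here they are BCL2, BCL-XL (from Bcl2l1) and MCL1. BAK1 is an effector that forms pores once it is set free, and the BH3-only proteins BIM (from Bcl2l11), BID, BAD and BIK either bind the guardians or push the effectors into activity. BNIP3L is a receptor of mitophagy, the removal of mitochondria. p53 is known to raise several pro-apoptotic members of the family in other settings, and much of the regulation of BAD, BID and MCL1 acts on the protein, which arrays do not measure.

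The probe set of a gene with the highest mean signal serves as its representative. Among the tested representatives, that of Bid varied between tumours with an SD of 0.75 over the 18 log2 signals, and that of Mcl1 with an SD of 0.09. The promoters of these genes are shown because they stand at opposite ends of that spread. RefSeq gives the Bid window as chr6:120916775-120917074 on the minus strand and the Mcl1 window as chr3:95658471-95658770 on the plus strand, both in GRCm38.p6. Each window spans 300 bases around a transcript start in RefSeq's promoter table, which for Mcl1 lies inside the annotated gene, is written 5′ to 3′, and has GGGCGG or CCGCCC, the letters of a GC box read on either strand, in capitals.
Bid: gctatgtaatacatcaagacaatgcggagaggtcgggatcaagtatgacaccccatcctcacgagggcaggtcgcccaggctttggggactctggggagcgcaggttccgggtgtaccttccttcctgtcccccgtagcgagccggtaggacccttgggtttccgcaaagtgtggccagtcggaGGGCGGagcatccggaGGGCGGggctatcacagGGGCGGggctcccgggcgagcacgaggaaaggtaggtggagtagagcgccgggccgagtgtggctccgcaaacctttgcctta
Mcl1: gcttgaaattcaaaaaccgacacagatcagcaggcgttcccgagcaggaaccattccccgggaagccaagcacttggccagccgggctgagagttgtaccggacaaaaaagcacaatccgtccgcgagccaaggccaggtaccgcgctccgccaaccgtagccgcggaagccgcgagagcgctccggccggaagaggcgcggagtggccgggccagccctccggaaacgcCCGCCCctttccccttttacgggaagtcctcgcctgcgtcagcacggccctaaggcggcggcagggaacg
The Bid window held 3 such matches and the Mcl1 window 1. RefSeq held 11 windows for 7 of the 9 listed genes, and 6 of the 11 held GGGCGG or CCGCCC, against 35.7% of all 32851 windows. CCAAT or ATTGG stood in 3 of the 11, against 37.4% of all windows. The p53 half-site, searched by that name on both strands, stood in 0 of the 11 and in 8.4% of all windows. A match is a description of the letters only, and p53 sites of many genes lie outside such windows.

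All signals are log2 values, with array medians of 6.05 to 6.18. Precision is limited by how many arrays there are and, for treatment, by the 2 treated and 4 untreated mice. Of the markers of lung tumour epithelium, Epcam (9.90 to 10.68) and Sftpc (12.31 to 13.49) were above the array median in all 18 tumours, and the Nkx2-1 probe set was below it in all of them (means of 3.65 to 3.83). Xist and Eif2s3y matched the sex labels. The mean signal of the 13 macrophage markers was 9.56 to 9.93 over all tumours, so other cells were present, and fewer cells of a type and less RNA per cell cannot be told apart in such tissue. The mean over the 4 measured red cell markers was 3.40 to 3.94 in the treated tumours and 4.49 to 5.25 in the untreated tumours, without overlap, while 3 of the 4 stayed below the array median throughout. In the limma fit described below, the 1 tested red cell marker had treatment differences of -3.09 in grade 3, -3.00 in grade 2 and -3.05 averaged. Each had an adjusted p under 0.05. The part of red cells in the other treatment differences was not tested. Control transcripts showed an excess of 3′ over 5′ signal of 2.62 in the treated grade 3 tumour 8688T3 and 1.85 in the treated grade 2 tumour 8639T4, against 0.62 to 1.05 in the other tumours. Differences of Bcl2l1, Bcl2l11, Bid, Bik and Bcl2l15 are also given without these tumours.

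Probe sets were tested where the signal exceeded the array median on at least 4 arrays, which kept 11884 of the 22626 probe sets and 16 of the 25 probe sets of the listed genes. Of the 25, 13 were above the median on all arrays, 9 on no array and 3 on some arrays. The 9 that were not tested were the only Bcl2 probe set, 1 of Bcl2l1, 3 of Bcl2l11, 1 of Bid, 1 of Bak1 and 2 of Bik. limma was fitted to all 18 tumours with the mouse as a random block, so a fitted difference can depart from the plain difference of group means. For Bcl2l1 1426191_a_at in grade 3 it was -0.32, beside means of 5.68 in treated and 5.73 in untreated tumours. In grade 2 it was 0.08, beside means of 5.65 and 5.33.

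No BCL2 family probe set passed in any comparison at an adjusted p of 0.05. In treated against untreated grade 3 tumours 0 of 16 passed, beside 0.471% of all tested probe sets (21 higher and 35 lower in treated). At an unadjusted p of 0.05 the count was 0 of 16, beside 8.42% of all, and 0 of 16 had groups without overlap, beside 4.62% of all. In grade 2, treated against untreated, 0 of 16 passed after adjustment (0.0841% of all), 1 of 16 before it (6.90% of all), and 1 of 16 had groups without overlap (8.04% of all). With the treatment difference averaged over the grades, 0 of 16 passed after adjustment (0.648% of all) and 1 of 16 before it (7.99% of all). All these shares lie near or below those of all probe sets.

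The interaction, the grade 3 treatment difference minus that in grade 2, gave 0 of 16 after adjustment (0% of all) and 0 of 16 before it (8.61% of all). Between grade 3 and grade 2 in untreated tumours 0 of 16 passed after adjustment (0.168% of all) and 3 of 16 before it (11.7% of all), and 1 of 16 had groups without overlap (6.02% of all). The 3 belonged to Bid and Bad and were higher in grade 3. In treated tumours, grade 3 against grade 2 gave 0 of 16 after adjustment (0% of all), 0 of 16 before it (1.62% of all) and 0 of 16 without overlap (0.656% of all). Over the 6 comparisons the smallest adjusted p of a BCL2 family probe set was 0.312, for Bid between the grades in untreated tumours.

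The median log2 difference of the 16 probe sets was -0.12 for treatment in grade 3, against 0.03 over all tested probe sets, with 11 of 16 below 0. It was 0.08 in grade 2, against 0.01 over all, with 11 of 16 above 0. For the interaction it was -0.25, against 0.02 over all, with 11 of 16 below 0. Between the grades in untreated tumours it was 0.15, with 11 of 16 above 0 and 49.3% of all probe sets above 0, and in treated tumours it was 0.00, against 0.02 over all. The 16 probe sets belong to 7 genes, so these counts are not of independent values.

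**Figure D1:**
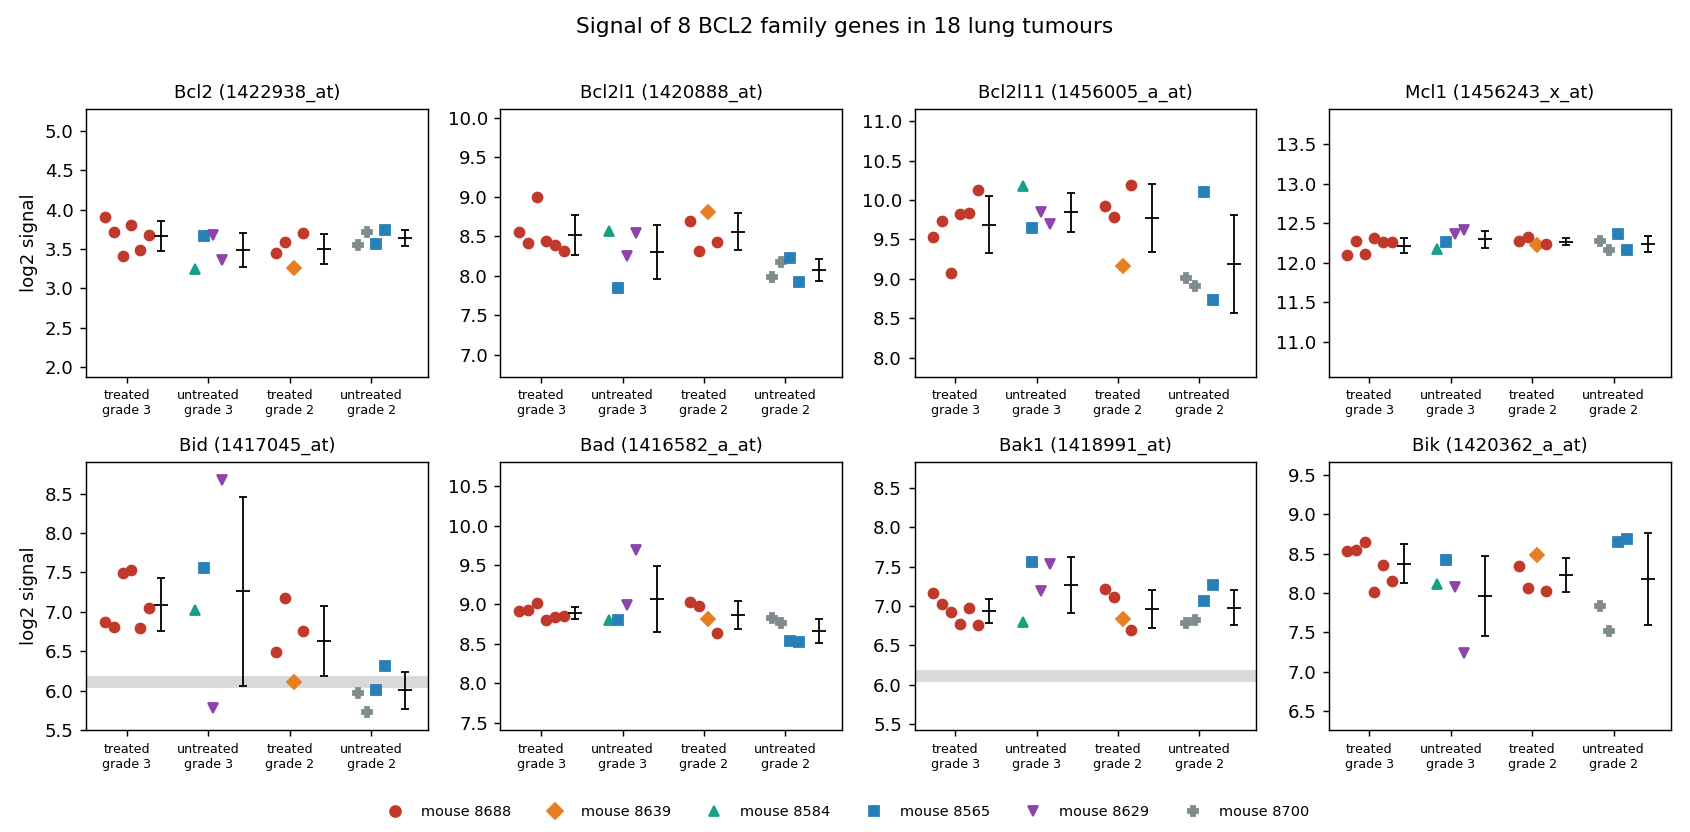
Log2 signal (vertical axes, each spanning the same number of log2 units) of the representative probe set of each of the 8 measured genes in the 18 tumours, by group along the horizontal axis. Points are tumours coloured by mouse, bars give the mean and SD beside each group, and the grey band is the range of array medians. Bid has the widest scatter, up to 8.67 in an untreated grade 3 tumour, and Mcl1 the narrowest.

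**Figure D2:**
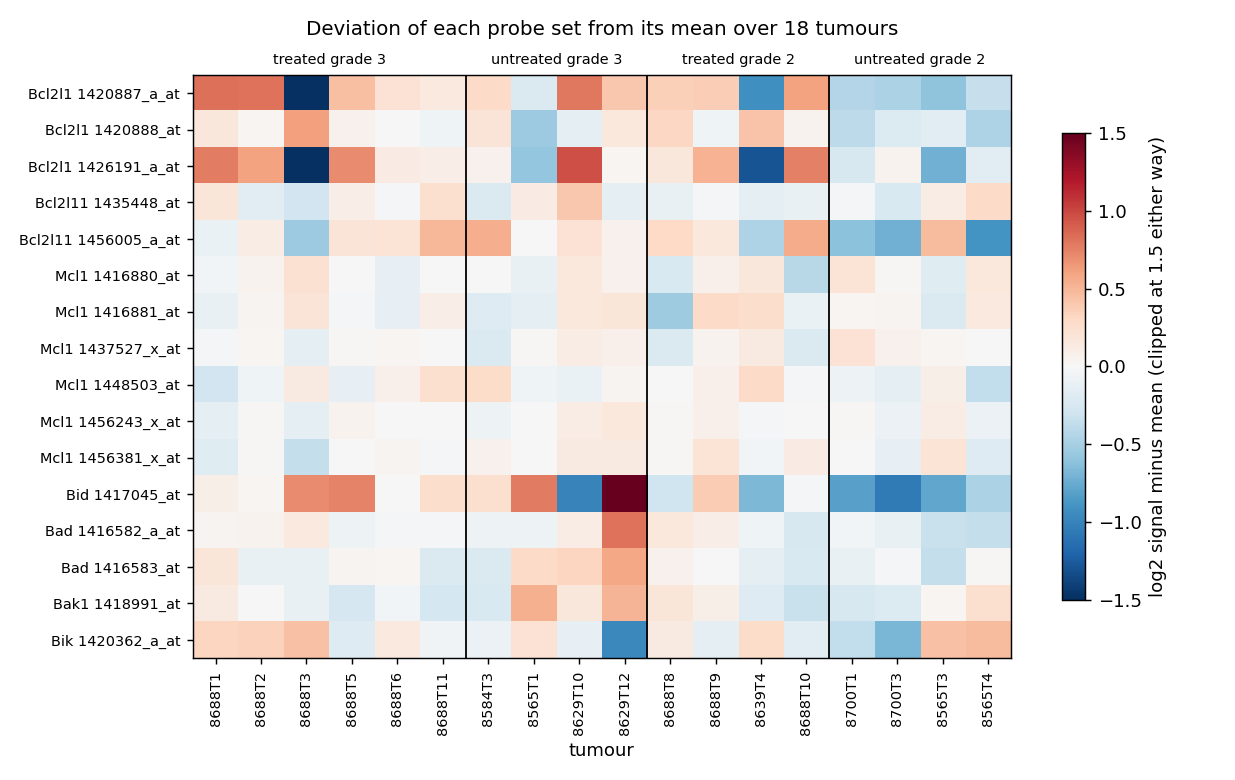
Log2 signal of each of the 16 tested probe sets minus its own mean over the 18 tumours (colour), with probe sets down the page and tumours across it by group. The darkest blue cells are 8688T3 in 2 probe sets of Bcl2l1, the darkest red one is 8629T12 for Bid, and the colour scale is clipped at 1.5 either way.

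**Figure D3:**
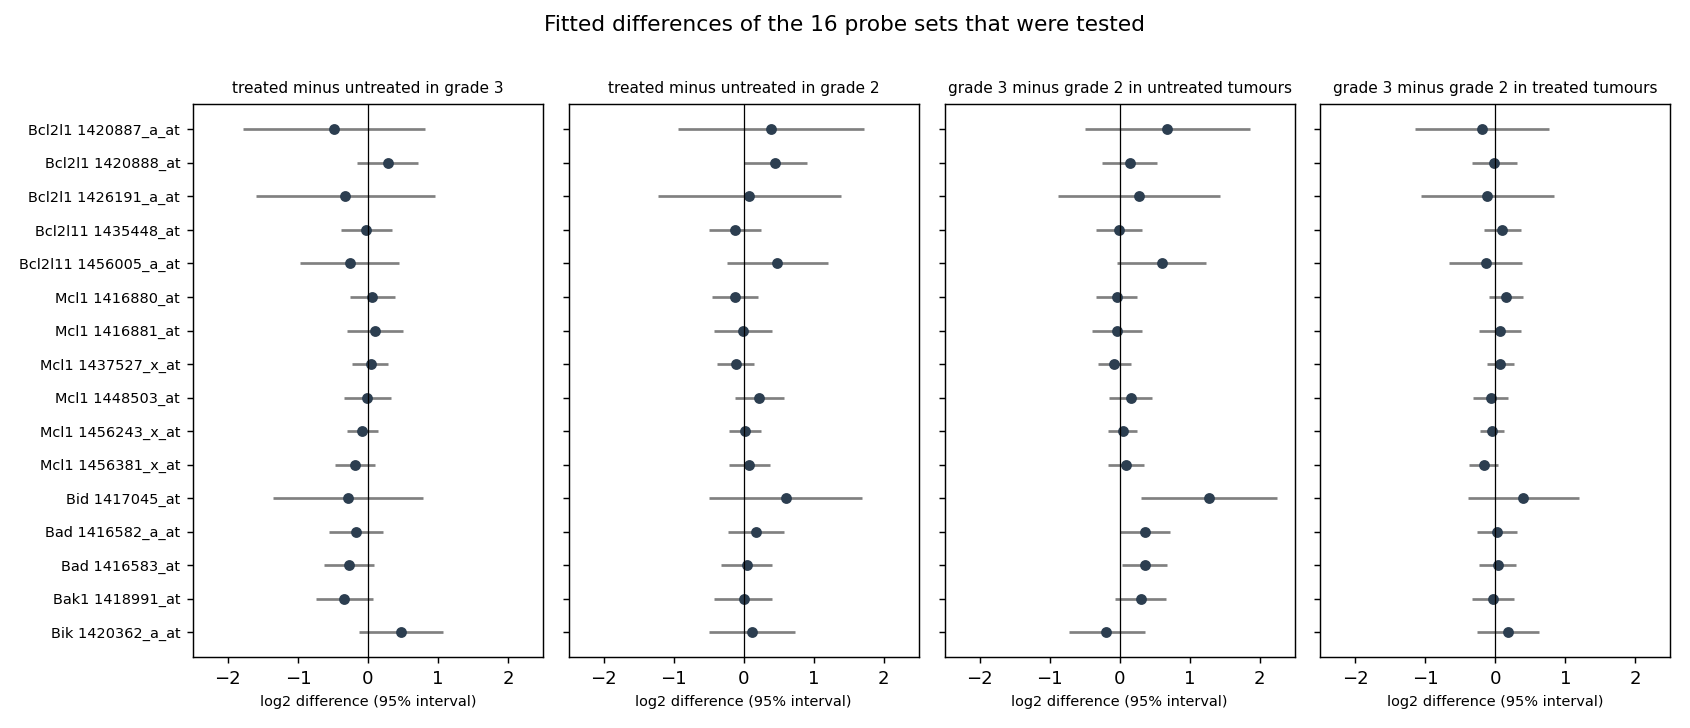
Fitted log2 differences (points) with 95% confidence intervals (bars) of the 16 tested probe sets in the comparisons of treatment and of grade. The interval of Bid between the grades in untreated tumours is the one farthest from 0, at 0.31 to 2.25.

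Among the guardians, Bcl2, the founding member of the family, gave no signal above the array median in any tumour. Its probe set read 3.41, 3.70 and 3.91 (lowest, median and highest) in the 6 treated grade 3 tumours, against 3.25, 3.66, 3.68 and 3.36 in the untreated grade 3 tumours. It read 3.45, 3.59, 3.26 and 3.70 in treated grade 2 tumours, against 3.55, 3.72, 3.56 and 3.74 in untreated grade 2 tumours. The groups overlapped in both grades, and with signals below the median of the arrays no difference was tested.

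Bcl2l1 encodes BCL-XL, the guardian that many epithelial tumours use. Its representative probe set, 1420888_at, had 8.31, 8.42 and 9.0 (lowest, median and highest) in treated grade 3 tumours, against 8.57, 7.84, 8.25 and 8.54 in untreated grade 3 tumours. In grade 2 it had 8.69, 8.31, 8.81 and 8.43 in treated tumours, against 7.99, 8.17, 8.22 and 7.92 in untreated tumours. All 4 treated grade 2 tumours thus lay above all 4 untreated ones, whereas the grade 3 groups overlapped.

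The fitted log2 difference of 1420888_at in grade 2 was 0.45 (SE 0.21, 95% confidence interval 0.00 to 0.90, adjusted p = 0.72), a ratio of 1.37 that did not pass. In grade 3 it was 0.29 (SE 0.21, interval -0.15 to 0.72, adjusted p = 0.736). Averaged over the grades it was 0.37 (SE 0.17, interval 0.01 to 0.73, adjusted p = 0.604), and the interaction was -0.16 (SE 0.24). The fibroblast and matrix markers also parted in grade 2, with mean signals of 9.03 to 9.16 in treated and 9.39 to 10.10 in untreated tumours. Of their 8 tested genes 6 were lower in treated tumours (median difference -0.55), 4 at an unadjusted p under 0.05 (6.90% of all probe sets) and 0 after adjustment. Their part in the Bcl2l1 readings was not tested. Without 8688T3 and 8639T4, where this probe set was highest of all 18 tumours, the differences were 0.33 in grade 2, 0.14 in grade 3 and 0.24 averaged.

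The other tested Bcl2l1 probe sets, 1420887_a_at and 1426191_a_at, followed each other closely (r = 0.94 over 18 tumours) and did not follow 1420888_at (r = -0.22 and -0.27, as descriptions). 1420887_a_at had 3.74, 6.35 and 6.84 (lowest, median and highest) in treated grade 3 tumours, against 6.30, 5.80, 6.81 and 6.42 in untreated grade 3 tumours. It had 6.37, 6.38, 5.09 and 6.62 in treated grade 2 tumours, against 5.57, 5.54, 5.41 and 5.67 in untreated grade 2 tumours. The low values were those of 8688T3 (3.74) and 8639T4 (5.09), the tumours with the 3′ excess, and 1426191_a_at was also lowest there, at 3.73 and 4.31.

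These 2 tumours were the 2 lowest of 18 on 5.27% of all tested probe sets and the 2 highest on 5.61%. The fitted treatment difference of 1420887_a_at was -0.48 in grade 3 (SE 0.62, adjusted p = 0.842) and 0.39 in grade 2 (SE 0.63, adjusted p = 0.907). Without the 2 tumours it was 0.22 in grade 3 and 0.84 in grade 2 (adjusted p = 0.497, with a range of 0.0406 to 1 over the alternatives). For 1426191_a_at the differences of -0.32 in grade 3 and 0.08 in grade 2 became 0.38 and 0.67 without them. With these tumours left out, all 3 tested Bcl2l1 probe sets had positive treatment differences in both grades, and none passed. The part of the 3′ excess in the readings of Bcl2l1 was not tested.

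**Figure D4:**
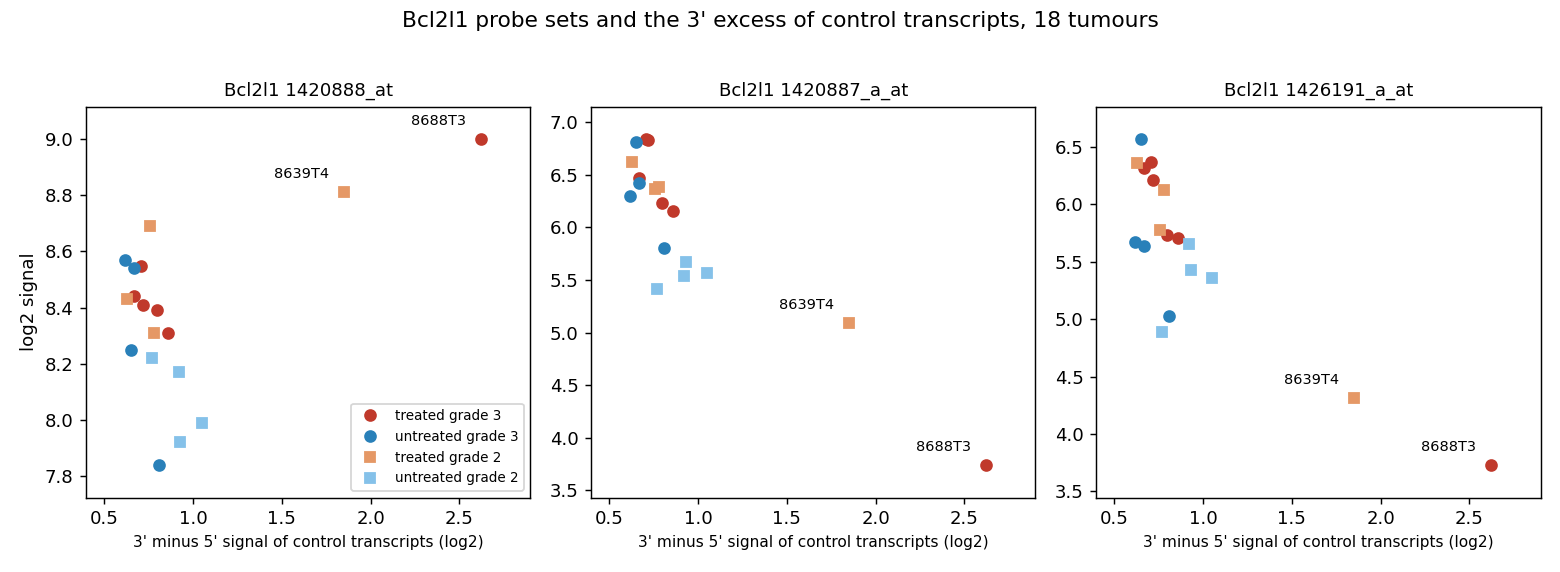
Log2 signal of the 3 tested Bcl2l1 probe sets (vertical axes) against the 3′ minus 5′ log2 signal of control transcripts (horizontal axis), 1 point a tumour, coloured by group. 8688T3 and 8639T4 lie apart at 2.62 and 1.85, highest on 1420888_at and lowest on the other probe sets.

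Between the grades in untreated tumours, 1420887_a_at was higher in every grade 3 tumour (5.80 to 6.81) than in any grade 2 tumour (5.41 to 5.67). The fitted difference of 0.68 had an SE of 0.56 and an adjusted p of 0.637, and 1420888_at differed by 0.15 (SE 0.19, adjusted p = 0.778). The fourth Bcl2l1 probe set, 1426050_at, stayed between 1.93 and 2.53 and was not tested.

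Mcl1 encodes a short-lived guardian, and all 6 of its probe sets were above the array median in every tumour. The representative 1456243_x_at had 12.10, 12.26 and 12.31 (lowest, median and highest) in treated grade 3 tumours, against 12.17, 12.26, 12.36 and 12.41 in untreated grade 3 tumours. It had 12.27, 12.33, 12.23 and 12.24 in treated grade 2 tumours, against 12.27, 12.16, 12.36 and 12.16 in untreated grade 2 tumours. All the groups overlapped, and only 0.32% of tested probe sets had a smaller SD over the 18 tumours.

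The SDs of the 6 Mcl1 probe sets ran from 0.09 to 0.20. In treatment and grade comparisons their fitted differences ran from -0.18 to 0.22, and the interaction ran from -0.26 to 0.19. For 1456243_x_at the treatment difference was -0.08 in grade 3 (95% confidence interval -0.30 to 0.15, adjusted p = 0.864) and 0.02 in grade 2 (interval -0.21 to 0.25, adjusted p = 0.978). The probe sets did not all follow each other, with r from -0.42 to 0.82 over the 15 pairs.

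Bak1, the effector, had 6.76, 6.95 and 7.16 (lowest, median and highest) in treated grade 3 tumours on 1418991_at, against 6.80, 7.56, 7.19 and 7.53 in untreated grade 3 tumours. In grade 2 it had 7.21, 7.11, 6.83 and 6.69 in treated tumours, against 6.78, 6.82, 7.06 and 7.26 in untreated tumours. In grade 3 the untreated tumours 8565T1, 8629T10 and 8629T12 lay above all treated ones and 8584T3 lay among them. The fitted grade 3 difference was -0.34 (SE 0.19, interval -0.74 to 0.07, adjusted p = 0.67), which was the smallest p of a BCL2 family probe set in that comparison but did not pass. The interaction was -0.33 (SE 0.23, adjusted p = 0.633), so the grade 3 and grade 2 differences were not told apart. The other Bak1 probe set stayed between 1.68 and 3.08 and was not tested.

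Of the BH3-only genes, Bid varied most. BID links death receptors to mitochondria once a caspase has cut it. 1417045_at had 6.79, 6.96 and 7.53 (lowest, median and highest) in treated grade 3 tumours, against 7.03, 7.56, 5.78 and 8.67 in untreated grade 3 tumours. In grade 2 it had 6.49, 7.17, 6.11 and 6.76 in treated tumours, against 5.97, 5.73, 6.01 and 6.31 in untreated tumours. The highest and one of the lowest of all 18 readings came from tumours of the same mouse, 8629T12 and 8629T10.

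In untreated tumours Bid averaged 7.26 ± 1.20 in grade 3 and 6.00 ± 0.24 in grade 2 (SD, n = 4 each), and the groups overlapped because of 8629T10. The fitted difference was 1.28 (SE 0.46, interval 0.31 to 2.25), a ratio of 2.43, and did not pass (adjusted p = 0.312). Without 8629T10 it was 1.68 and passed (adjusted p = 0.0425), so the call changed when that low reading of 5.78 was left out. The other tumour of the same mouse, 8629T12, pulled the opposite way. Its Bid reading of 8.67 was the highest of all and raised the untreated grade 3 mean. Over all alternatives the adjusted p ran from 0.0203 to 0.999 and the difference from 0.89 to 1.68. In treated tumours the grade difference was 0.40 (SE 0.37, adjusted p = 0.999). Treatment differences were -0.28 in grade 3 (SE 0.51, adjusted p = 0.886) and 0.60 in grade 2 (SE 0.52, adjusted p = 0.842), with an interaction of -0.88 (SE 0.59, adjusted p = 0.632). Without 8688T3 and 8639T4 the grade 2 difference was 0.84.

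The tested genes whose signal followed Bid most closely over the 18 tumours were Qsox1 (r = 0.89) and Cd177 (r = 0.83), a surface protein known from neutrophils. Cd177 averaged 7.92 ± 1.55 in grade 3 and 3.75 ± 0.55 in grade 2 untreated tumours (SD, n = 4 each). The mean of the 6 measured listed neutrophil markers was 5.05 to 6.09 in grade 3 and 4.89 to 5.82 in grade 2 untreated tumours, and 4 of the 6 stayed below the array median in all 18 tumours. The part of neutrophils in the Bid readings was not tested. The other Bid probe set stayed between 2.94 and 3.79 and was not tested.

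Bcl2l11 encodes BIM, which can bind every guardian. 1456005_a_at had 9.08, 9.78 and 10.13 (lowest, median and highest) in treated grade 3 tumours, against 10.18, 9.64, 9.85 and 9.70 in untreated grade 3 tumours. In grade 2 it had 9.93, 9.79, 9.17 and 10.19 in treated tumours, against 9.01, 8.91, 10.10 and 8.73 in untreated tumours. 3 of the 4 untreated grade 2 tumours lay below every other tumour of the series, and the remaining one, 8565T3, was among the highest.

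The treatment difference of 1456005_a_at was -0.26 in grade 3 (SE 0.34, adjusted p = 0.841) and 0.48 in grade 2 (SE 0.34, adjusted p = 0.833), with an interaction of -0.74 (SE 0.39, adjusted p = 0.584). 8639T4 was the lowest treated grade 2 tumour, and without it and 8688T3 the grade 2 difference was 0.74 and that averaged over the grades 0.37, against 0.11 with them. Between grade 3 and grade 2 in untreated tumours it differed by 0.60 (SE 0.30, adjusted p = 0.454). The other tested probe set, 1435448_at, stayed between 9.06 and 9.75, did not follow it (r = 0.10), and had treatment differences of -0.02 in grade 3 and -0.13 in grade 2. The pattern therefore rests on 1 of the 2 probe sets. The 3 remaining probe sets ran from 2.36 to 4.62 and were not tested.

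Bad encodes a BH3-only protein that survival kinases hold in check by phosphorylation. 1416582_a_at had 8.80, 8.89 and 9.02 (lowest, median and highest) in treated grade 3 tumours, against 8.80, 8.80, 8.99 and 9.69 in untreated grade 3 tumours. In grade 2 it had 9.03, 8.98, 8.81 and 8.64 in treated tumours, against 8.83, 8.76, 8.54 and 8.52 in untreated tumours. 8629T12, the tumour with the highest Bid reading, was also the highest for both Bad probe sets.

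In untreated tumours both Bad probe sets were higher in grade 3 than in grade 2 by 0.36, with intervals of 0.01 to 0.72 for 1416582_a_at and 0.03 to 0.68 for 1416583_at, and neither passed (adjusted p = 0.413 and 0.384). Without 8629T12 the differences were 0.22 and 0.29. The probe sets followed each other with r = 0.70. Treatment differences of 1416582_a_at were -0.17 in grade 3 (SE 0.19, adjusted p = 0.82) and 0.17 in grade 2 (SE 0.19, adjusted p = 0.871).

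Beside these grade differences, the 9 endothelial markers averaged 7.57 to 8.38 in grade 3 and 8.17 to 9.13 in grade 2 untreated tumours. All 9 were lower in grade 3, with a median difference of -0.64, 5 of them at an unadjusted p under 0.05 (11.7% of all probe sets) and 0 after adjustment (0.168% of all). The T and NK cell markers averaged 4.49 to 6.00 in grade 3 and 5.58 to 6.47 in grade 2, and all 5 that were tested were lower in grade 3, with a median difference of -0.71, 1 at an unadjusted p under 0.05 and 0 after adjustment. Their part in the differences of Bid and Bad was not tested.

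Bik encodes a BH3-only protein of the endoplasmic reticulum. 1420362_a_at had 8.01, 8.44 and 8.65 (lowest, median and highest) in treated grade 3 tumours, against 8.12, 8.42, 8.08 and 7.24 in untreated grade 3 tumours. In grade 2 it had 8.34, 8.06, 8.48 and 8.03 in treated tumours, against 7.84, 7.52, 8.65 and 8.68 in untreated tumours. The untreated grade 2 tumours parted by mouse, with 7.84 and 7.52 in mouse 8700 against 8.65 and 8.68 in mouse 8565.

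The same parting appeared in both other Bik probe sets, with 4.27 and 4.05 against 4.92 and 4.85 on 1420363_at, and 4.49 and 4.41 against 5.08 and 5.55 on 1449836_x_at, mouse 8700 first. These lay below the array median in all tumours and were not tested, yet they followed 1420362_a_at with r = 0.76 and 0.93, and each other with r = 0.80. 8629T12 was the lowest of the untreated grade 3 tumours on all 3 probe sets.

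The Bik treatment difference was 0.48 in grade 3 (SE 0.28, interval -0.12 to 1.08, adjusted p = 0.684) and 0.12 in grade 2 (SE 0.29, interval -0.49 to 0.73, adjusted p = 0.942). Averaged over the grades it was 0.30 (SE 0.23, adjusted p = 0.871), and 0.19 without 8688T3 and 8639T4. The spread between mice 8700 and 8565 within a group was larger than any of these differences.

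**Figure D5:**
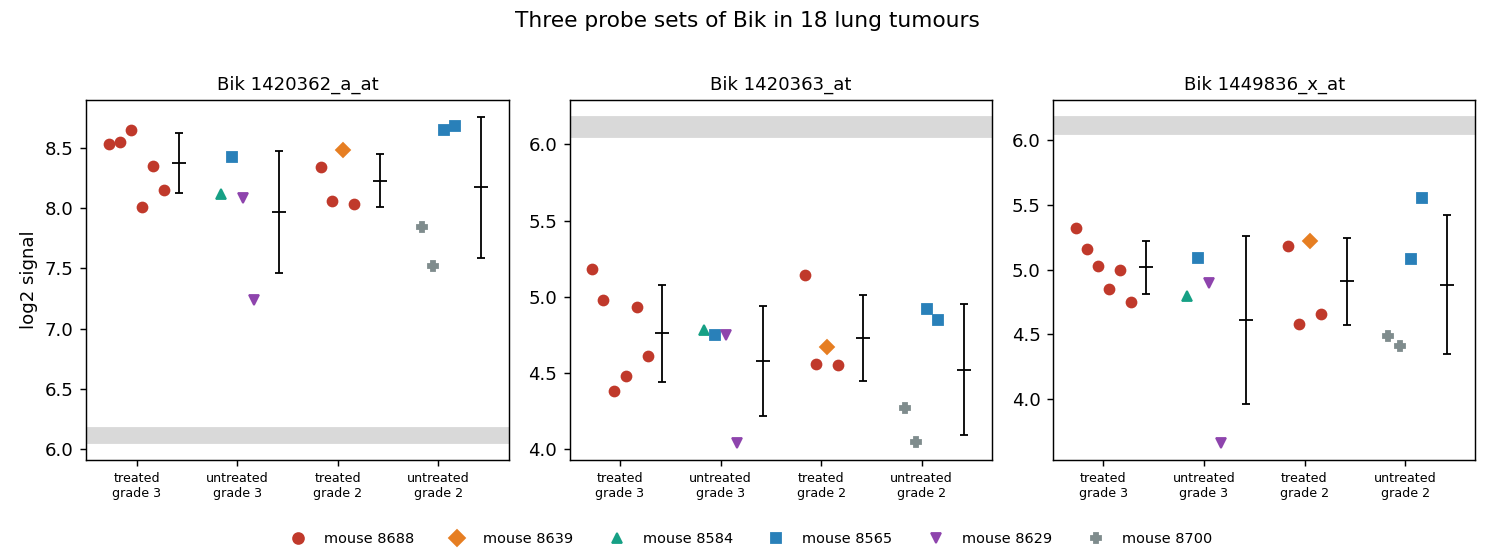
Log2 signal of the 3 Bik probe sets (vertical axes) in the 18 tumours, by group along the horizontal axis and coloured by mouse. In untreated grade 2 tumours the pair from mouse 8700 lies below the pair from mouse 8565 on all 3, and 8629T12 is the lowest untreated grade 3 tumour on each.

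Outside Bid, the tested probe sets of other genes that followed a representative most closely over the 18 tumours were Rab40c (r = 0.87) and Zscan12 (r = 0.84) for Bcl2l1, and Atf2 (r = 0.96) and Tomm20 (r = 0.95) for Bcl2l11. They were Apex1 and Chordc1 (r = 0.84 each) for Mcl1, and Gramd1a and Ergic1 (r = 0.90 each) for Bad. They were Rfk (r = 0.85) and the chemokine gene Ccl17 (r = 0.82) for Bak1, and Uri1 (r = 0.77) and Chd1l (r = 0.76) for Bik. Each is among the highest of many correlations over tumours that share mice, and is given as a description.

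In 6 lists of neighbouring pathways, 0 genes passed in any of the 6 comparisons by limma. The lists were the other BCL2 family genes (7 of 17 tested), caspases and their activators (21 of 25), death receptor signalling (7 of 13), regulators of BCL2 proteins (26 of 30), mitophagy (14 of 16) and hypoxia (11 of 15). Before adjustment, for the treatment difference averaged over the grades, 2 other BCL2 family genes, 2 caspase genes, 2 death receptor genes, 2 regulators, 0 mitophagy genes and 0 hypoxia genes had p under 0.05, where 7.99% of all tested probe sets did. The median differences of the 6 lists in that comparison ran from 0.00 to 0.16, against 0.02 over all tested probe sets.

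Bcl2l15, a less studied relative in the family, came nearest to passing. It had 7.19 to 8.66 in treated grade 3 tumours, against 4.83 to 6.88 in untreated grade 3 tumours, and 7.26 to 8.32 in treated grade 2 tumours, against 5.31 to 7.25 in untreated grade 2 tumours. The groups did not overlap in either grade, in grade 2 by 7.26 against 7.25. Groups did not overlap on 4.62% of all tested probe sets in grade 3 and 8.04% in grade 2. Bcl2l15 was above the array median in all treated tumours, but in 2 of 4 untreated grade 3 and 1 of 4 untreated grade 2 tumours. It therefore met the filter only through the treated tumours, where it was high. The untreated means of 6.17 in grade 3 and 6.09 in grade 2 lay near the array medians. The difference averaged over the grades was 1.85 (SE 0.42, adjusted p = 0.0505), with 1.80 in grade 3 (adjusted p = 0.157) and 1.89 in grade 2 (adjusted p = 0.276). It passed when any of 8584T3, 8688T11 or 8639T4 was left out (adjusted p = 0.00735, 0.0342 and 0.0376), and did not pass without any of the other 15 tumours in turn (0.0511 to 0.239). Without both 8688T3 and 8639T4 it was 2.12 and did not pass (adjusted p = 0.0876). With sex as a covariate, a term that rests on 8639T4 against the 3 tumours of 8688 in treated grade 2, the difference was 1.11 (adjusted p = 0.60). That term cannot be told apart from mouse or from the 3′ excess of 8639T4. Over mouse means, with only 1 mouse in treated grade 3, the difference was 1.82. Over all alternatives the adjusted p ran from 8.57e-06, with array weights, to 0.755.

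Fas, the death receptor and a known p53 target, averaged 9.12 ± 0.35 in treated (SD, n = 6) and 8.31 ± 0.48 in untreated grade 3 tumours (SD, n = 4), and 9.18 ± 0.13 in treated and 8.28 ± 0.20 in untreated grade 2 tumours (SD, n = 4 each). Its difference averaged over the grades was 0.80 (SE 0.22, adjusted p = 0.133). Ddit3, which encodes the stress factor CHOP, a known inducer of Bcl2l11, had an averaged difference of 0.60 (SE 0.19, adjusted p = 0.246). With array weights Fas and Ddit3 both passed in that comparison (adjusted p = 1.13e-05 and 0.00344), as did 2545 of all 11884 tested probe sets. Over the alternatives these were the smallest values of the 2 genes.

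Aifm1, which encodes the apoptosis-inducing factor of mitochondria, had 9.14 to 9.71 in treated grade 3 tumours, against 8.89 to 9.03 in untreated grade 3 tumours, a difference of 0.45 (SE 0.14, adjusted p = 0.255). Casp6, an executioner caspase that cuts lamins, had 7.06 to 7.30 in treated and 7.28 to 7.75 in untreated grade 3 tumours, and 6.93 to 7.31 in treated and 7.14 to 7.57 in untreated grade 2 tumours. Its averaged difference was -0.30 (SE 0.12, adjusted p = 0.514), and it was named after its values were seen. Of the 21 tested genes of the caspase list 15 were above 0 in that comparison (median 0.04), so Casp6 went against most of its list. Phb2, a mitophagy receptor of the inner membrane, differed by 0.37 between grade 3 and grade 2 in untreated tumours (SE 0.13, adjusted p = 0.311), and the glycolysis gene Pgk1 of the hypoxia list had an interaction of -0.91 (SE 0.26, adjusted p = 0.575).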

How the data were processed

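The labels' protocols give 100 ng of total RNA per tumour, amplified and labelled with biotin. The deposited values are log2 signals of probe sets. The submitters' processing notes name GCRMA 2.20.0 and R 2.11.0. That method corrects background by probe sequence and equalises the distributions of the arrays, so a difference in total RNA is not visible. Scan dates and any further filter were not stated in these sources. Values ran from 0.936 to 14.1, and no 2 arrays were duplicates (correlations of 0.974 to 0.997).

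Of 22690 probe sets, 64 controls were left out. 20380 had 1 gene symbol, 691 several and 1555 none, and only those with 1 symbol were named. The restored gene is not analysed here. limma 3.58.1 in R 4.3.3 fitted 4 group means per probe set to 18 tumours. The estimated within-mouse correlation was 0.255, and there were 14 residual plus 3.79 prior degrees of freedom, with Benjamini-Hochberg adjustment over 11884 probe sets. The steps were tested on simulated data. No scan or extraction batch is given, and mouse and sex were the groupings tried.

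The genes, the pathway and marker lists and the tests were chosen with earlier results of these data known. Each gene's representative is its probe set with the highest mean. The naming rule took all probe sets of the listed genes, for each tested representative the 2 other genes of highest Pearson r, and per pathway list the passing genes or, where none passed, the one of smallest p. Casp6 lies outside that rule, and the tissue and sex markers were named as checks. Alternatives were other treatments of mouse and sex, other scalings and filters, gene-level values, another spread model, array weights, and leaving out tumours or mice. The 3′ excess is the mean 3′ minus 5′ log2 signal of 2 control transcripts.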

Additional observations from a re-analysis of the deposited data

Results flagged for a closer look

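Of 100 sets of readings, 1 probe set in 1 group each, 7 had a tumour far from the others by Dixon's ratio of its gap to the group's range, where chance gives about 1 in 20. 8688T3 stood apart 5 times among the treated grade 3 tumours. It was lowest on Bcl2l1 1420887_a_at (3.74 against 6.16 to 6.84 in the others, ratio 0.780), Bcl2l1 1426191_a_at (3.73 against 5.71 to 6.37, ratio 0.752), Mcl1 1437527_x_at (11.67 against 11.79 to 11.83, ratio 0.760) and Bak1 1425716_s_at (1.68 against 2.38 to 2.76, ratio 0.651), and highest on Bcl2l1 1420888_at (9.0 against 8.31 to 8.55, ratio 0.655). 8639T4 was lowest of the treated grade 2 tumours on Bcl2l1 1420887_a_at (5.09 against 6.37 to 6.62, ratio 0.837). These are the tumours with a 3′ excess of 2.62 and 1.85 in control transcripts, and its part in these readings was not tested. 8629T12 was lowest of the untreated grade 3 tumours on Bik 1420363_at (4.04 against 4.75 to 4.78, ratio 0.960).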

How the results depend on the processing

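Over 38 settings, 3732 of the 3804 re-estimated differences kept their direction and their side of the threshold, 40 newly passed, 0 lost a call and 32 turned sign. Counts of passing BCL2 family probe sets stayed at 0 in all 6 comparisons with 2 exceptions. With array weights, which ran from 0.21 to 6.25, they were 1 of 16 for treatment in grade 3, beside 636 of all 11884 tested probe sets. For treatment in grade 2 they were 5 of 16, beside 3405 of 11884, and averaged over the grades 2 of 16, beside 2545 of 11884. Between the grades in untreated tumours they were 4 of 16, beside 1290 of 11884. Those in grade 2 were 2 of Bcl2l1 and 1 each of Bid, Bcl2l11 and Mcl1, all higher in treated tumours, and those between the grades were of Bid, Bad, Bak1 and Bcl2l11, all higher in grade 3. Leaving out single tumours gave 0 to 1 for that last comparison, with 1 only without 8629T10. Array weights also moved counts over all probe sets, to 636 for treatment in grade 3 and 3405 in grade 2, from 56 and 10. Over mouse means these were 0 and 0, without a mouse term 405 and 73, and with single tumours left out 20 to 226 and 6 to 52, lowest without 8565T4 and highest without 8584T3. They were 4 and 8 with sex as a covariate, 16 and 12 without mouse 8565, and 15 and 15 without mouse 8629. For the averaged treatment difference those settings gave 14, 8 and 43. Averaged over the grades the 77 became 2545 with array weights and 6 over mouse means, the interaction's 0 became 220 with array weights, and the 20 between the grades in untreated tumours became 1290 with array weights and 0 with mouse as a fixed block. With single tumours left out these ran from 20 (without 8565T4) to 313 (without 8584T3) averaged over the grades, from 0 to 16 (without 8565T1) for the interaction, and from 1 (without 8700T3) to 100 (without 8565T1) between the grades in untreated tumours.

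The counted sign changes concerned differences that did not pass, and their cause was not tested. With array weights, treatment in grade 3 became 0.17 for Bcl2l1 1420887_a_at and 0.39 for 1426191_a_at, averaged treatment 0.47 and 0.39 for these and 0.08 for Mcl1 1456381_x_at, and grade 2 treatment 0.08 for Bcl2l11 1435448_at. The interaction became -0.29 for Bik 1420362_a_at and -0.19 for Bcl2l11 1435448_at, and their untreated grade difference 0.43 and 0.28. Without 8688T3 and 8639T4, 1420887_a_at and 1426191_a_at became 0.22 and 0.38 in grade 3 and 0.53 and 0.52 averaged. The sex term rests on 8639T4 against the tumours of 8688 in treated grade 2, so it cannot be told apart from mouse or from the 3′ excess of 8639T4. With sex as a covariate, Mcl1 1448503_at became 0.21 in grade 3. In grade 2 that setting gave 0.11, 0.25 and 0.06 for Mcl1 1416880_at, 1416881_at and 1437527_x_at, -0.51 and -1.09 for Bcl2l1 1420887_a_at and 1426191_a_at, and -0.05 for Bcl2l11 1456005_a_at. Averaged, it gave 0.24 and 0.15 for Mcl1 1416880_at and 1437527_x_at, -0.36 for Bid and -0.49 for Bcl2l11 1456005_a_at. With mouse as a fixed block Bcl2l1 1420888_at became -0.23 between the grades in untreated tumours. Over mouse means, Bcl2l1 1426191_a_at and Bcl2l11 1456005_a_at became 0.48 and 0.12 between the grades in treated tumours. Without mouse 8629, Bad 1416582_a_at became 0.05 for grade 3 treatment, without 8700 Bik became -0.28 for grade 2 treatment, and without 8565 Bik became 0.17 between the grades in untreated tumours. With single tumours left out, Mcl1 1416881_at ran from -0.12 to 0.19 between the grades in treated tumours.

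The grades were compared within mice, with mouse as a fixed block (8688 and 8565 carried both grades) and in mouse 8688 alone, and 0 BCL2 family probe sets passed. No paired analysis was possible because, for treatment, no mouse carried both treated and untreated tumours, and replicate numbers, given in accession order, pair no tumours. Readings below the array median, such as those of Bcl2, are limited by background.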
